A study of Mus musculus with 9 samples.

Results

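The methionine cycle and the transsulfuration route that leaves it were described here through 10 enzyme genes measured by RNA sequencing in mouse liver: Mat1a, Mat2a, Mat2b, Ahcy, Gnmt, Pemt, Bhmt, Bhmt2, Cbs and Cth. They were taken by symbol from a table of 21703 rows, all 10 were found, and all 10 passed the filter on low counts that left 12651 genes. The genes were chosen by their role and by their CPM across c-Myc, Mycl and no dox livers, which were known at the time. Every difference of the 10 genes between groups is therefore a description, given with its spread and without a p-value. Which of the 10 were called in tests over all genes is given below as a description only. All 9 livers came from C57BL/6J mice 4 weeks old that carried R26-M2-rtTA, a doxycycline-dependent transactivator at the broadly active Rosa26 locus. The c-Myc livers also carried Col-TetOP-c-Myc-ires-mCherry and were taken 48 h after doxycycline (0.2 ml at 2.0 mg/ml) was injected into the peritoneum. The Mycl livers carried Col-TetOP-Mycl-ires-mCherry and had the same injection and the same 48 h. The no dox livers came from uninjected mice with the Mycl transgene. Each group has 3 livers. Injected livers without a Myc family transgene and uninjected livers with the c-Myc transgene were not analysed here. The effect of the drug therefore cannot be told apart from that of either transgene in the comparisons with no dox. Nor can the c-Myc line be told apart from c-Myc induction, in the comparison with no dox or with Mycl livers. The transactivator is not limited to hepatocytes.

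In the methionine cycle, methionine adenosyltransferase (MAT) joins methionine and ATP to S-adenosylmethionine (SAM), the methyl donor of most cellular methylation. Methyltransferases turn SAM into S-adenosylhomocysteine, Ahcy splits that product to homocysteine, and homocysteine is either methylated back to methionine or passed by Cbs and Cth to cysteine. Adult hepatocytes express Mat1a, whereas most other tissues, fetal liver and growing liver cells express Mat2a, and a change from Mat1a to Mat2a is known from liver cancer and regenerating liver. The question put to these data was whether such a change was seen.

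Total counts were 14088780 to 16482480 in c-Myc livers, 11013412 to 18887413 in Mycl livers and 14043323 to 20079232 in no dox livers, and levels are counts per 1000000 reads (CPM), with library sizes scaled by the trimmed mean of M values (TMM). The reporter IRES-mCherry stood at 221, 282 and 76.4 CPM in c-Myc replicates 1 to 3, at 52.3, 146 and 270 CPM in Mycl replicates 1 to 3, and at 0.316 to 1.09 CPM in no dox livers. Myc reads stood at 81.8 to 270 CPM in c-Myc livers against 4.05 to 12.7 CPM in no dox livers. Mycl reads stood at 49.1 to 234 CPM in Mycl livers against 10.8 to 11.6 CPM in no dox livers. Induction therefore followed the labels in every liver and differed in size between livers of a group. In bulk liver RNA, fewer hepatocytes and less RNA per hepatocyte cannot be told apart.

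The hepatocyte markers Alb, Apoa1, Ttr, Serpina1a, Cps1, Cyp2e1, Tat and Hnf4a were all present in every liver, and the Y-linked gene Ddx3y stood at 58.6 to 118 CPM in all 9. Summed over the 8 markers, the hepatocyte level was 58692 to 97326 CPM in c-Myc livers, 75495 to 123535 CPM in Mycl livers and 119709 to 133684 CPM in no dox livers. Their median log2 fold change was -0.76 in c-Myc against no dox livers and -0.20 in Mycl against no dox livers. The pericentral list of 8 genes summed to 2875 to 5031 CPM in c-Myc livers, 4046 to 5144 CPM in Mycl livers and 7657 to 8049 CPM in no dox livers. The periportal list of 8 summed to 7280 to 11343 CPM in c-Myc livers, 10503 to 17411 CPM in Mycl livers and 13928 to 16802 CPM in no dox livers. The part of these shifts in the results below was not tested.

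Among the transcripts for SAM synthesis, Mat1a was the most abundant in every liver, also per length. Mat1a (ENSMUSG00000037798, chromosome 14, 41105035 to 41124412, plus strand, GRCm38) encodes the catalytic subunit of the adult liver. Its level was 1535, 1263 and 1613 CPM in c-Myc replicates 1 to 3, 1765, 2116 and 3791 CPM in Mycl replicates 1 to 3, and 1508, 1550 and 1623 CPM in no dox replicates 1 to 3. The c-Myc and no dox livers overlapped, and each Mycl liver stood above every liver of the other groups. Mat2a (ENSMUSG00000053907, chromosome 6, 72432799 to 72439558, minus strand) encodes the catalytic subunit of most other tissues. It stood at 80.7, 122 and 63.1 CPM in c-Myc livers, at 53.7, 41.4 and 44.8 CPM in Mycl livers, and at 58.9, 44.8 and 54.4 CPM in no dox livers. Each c-Myc liver was above all of the others, the nearest pair being 63.1 CPM in c-Myc replicate 3 and 58.9 CPM in no dox replicate 1. Mat2b (ENSMUSG00000042032, chromosome 11, 40679314 to 40695203, minus strand) encodes a regulatory subunit that binds the Mat2a enzyme. It stood at 32.1, 32.0 and 32.9 CPM in c-Myc livers, at 51.1, 30.9 and 34.2 CPM in Mycl livers, and at 49.1, 44.6 and 37.6 CPM in no dox livers, so it was not higher in c-Myc livers where Mat2a was.

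As log2 fold changes from the edgeR fit, Mat2a differed by 0.75 (SE 0.23) in c-Myc against no dox livers, a 1.68-fold higher level, and by 0.93 (SE 0.23) in c-Myc against Mycl livers, a 1.90-fold higher level. Mycl against no dox livers gave -0.18 (SE 0.23) for the same gene. Mat1a differed by -0.09 (SE 0.28) in c-Myc against no dox livers, by -0.80 (SE 0.29) in c-Myc against Mycl livers and by 0.71 (SE 0.28) in Mycl against no dox livers, the last a 1.64-fold higher level. For Mat2b the values were -0.44 (SE 0.19), -0.26 (SE 0.19) and -0.18 (SE 0.19) in the same order as for Mat1a. The no dox livers are shared by both comparisons with them. Among the 12651 log2 fold changes ordered by size, Mat2a was the 1608th highest in c-Myc against no dox livers and the 619th highest in c-Myc against Mycl livers. Without Mycl replicate 3 the Mat1a log2 fold change in Mycl against no dox livers was 0.37. In that liver the liver gene Cyp2b9, picked after its values were seen, stood at 24.1 CPM against at most 1.90 CPM in the other 8 livers.

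**Figure D1:**
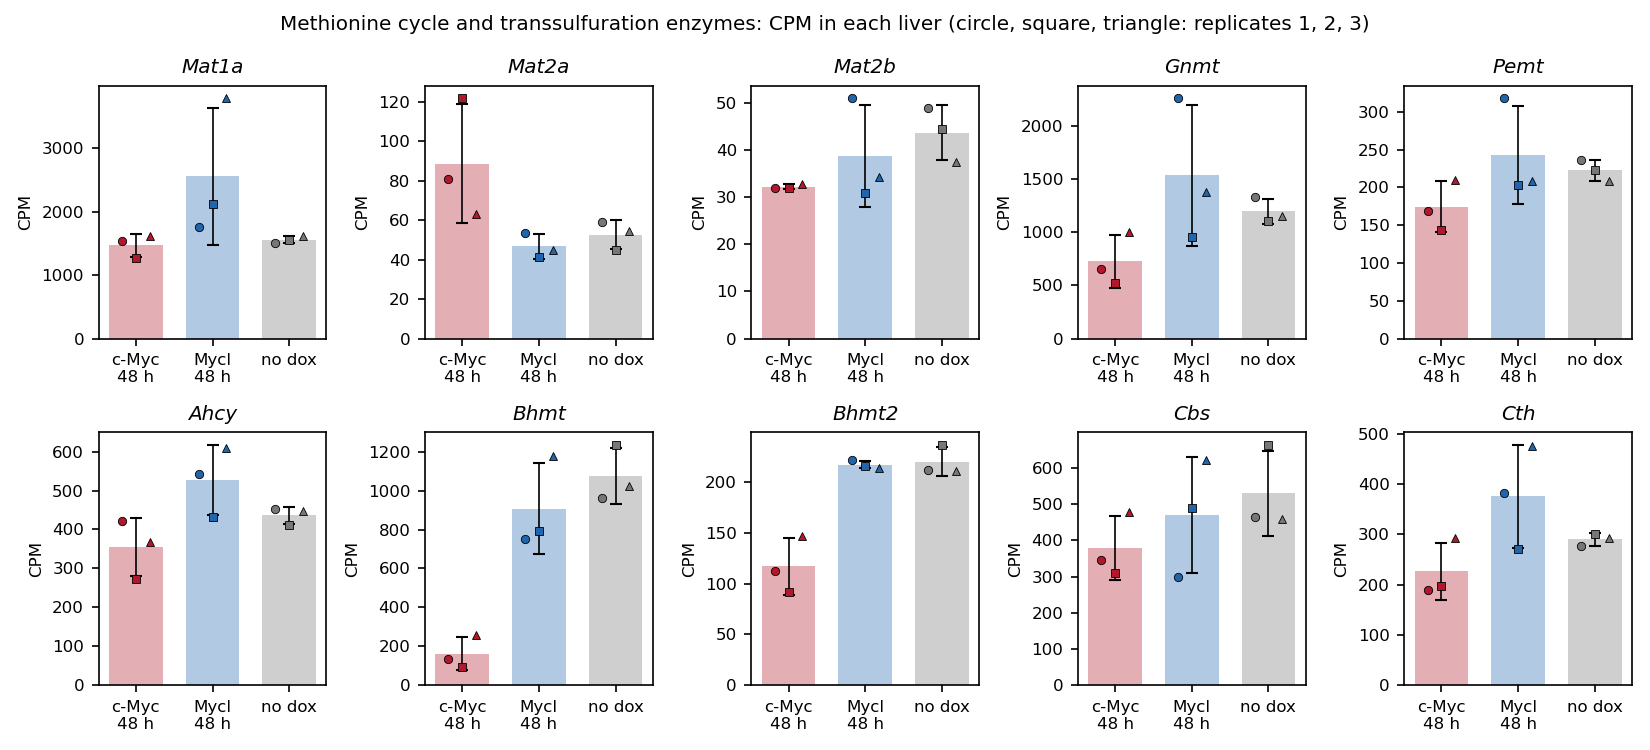
CPM of the 10 genes in each liver, with 1 panel per gene, a linear axis from 0 and the groups c-Myc 48 h, Mycl 48 h and no dox from left to right. Circles, squares and triangles are replicates 1, 2 and 3; Mat2a is high in the c-Myc livers, Mat1a in the Mycl livers, and Bhmt is at most 257 CPM in c-Myc livers against at least 754 CPM in the others.

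The panels by gene show that the higher Mat2a level of c-Myc livers had no matching loss of Mat1a. To set the 2 genes on 1 scale, CPM was divided by the length of merged exons, 3468 bases for Mat1a and 4486 bases for Mat2a. Mat2a then made up 3.90, 6.95 and 2.94% of the sum of both genes in c-Myc livers, 2.30, 1.49 and 0.906% in Mycl livers, and 2.93, 2.19 and 2.53% in no dox livers. The c-Myc mean was 4.60 ± 2.09% (SD, n = 3), the Mycl mean 1.56 ± 0.698% and the no dox mean 2.55 ± 0.372%. Read the other way, the Mat1a level per length was 13.4 to 33.1 times that of Mat2a in c-Myc livers, 42.5 to 109 times in Mycl livers and 33.1 to 44.7 times in no dox livers. Mat1a thus stayed far above Mat2a in all 9 livers, and a replacement of the Mat1a transcript was not seen. The longest coding transcript of Mat2a has 3387 bases, a length that would raise these Mat2a shares. The processed pseudogene Gm9523, which has no row in the count table, matches Mat2a at 94.93% over 1065 bases. Reads that match both may not have been counted at all.

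The log2 ratio of Mat2a to Mat1a, which does not depend on library scaling, was -4.25, -3.37 and -4.68 in c-Myc livers, -5.04, -5.67 and -6.40 in Mycl livers, and -4.68, -5.11 and -4.90 in no dox livers. Group means differed by 0.80 (SE 0.40) between c-Myc and no dox livers, by -0.81 (SE 0.41) between Mycl and no dox livers and by 1.61 (SE 0.55) between c-Myc and Mycl livers. The c-Myc and no dox ratios did not overlap, but c-Myc replicate 3 and no dox replicate 1 both stood at -4.68. The Mycl and no dox ratios overlapped. Leaving out 1 liver at a time moved the c-Myc minus no dox difference between 0.43 and 1.08 and the c-Myc minus Mycl difference between 1.24 and 1.94. In the comparison of c-Myc with Mycl livers both genes of the ratio differed, Mat2a being higher and Mat1a lower in c-Myc livers.

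**Figure D2:**
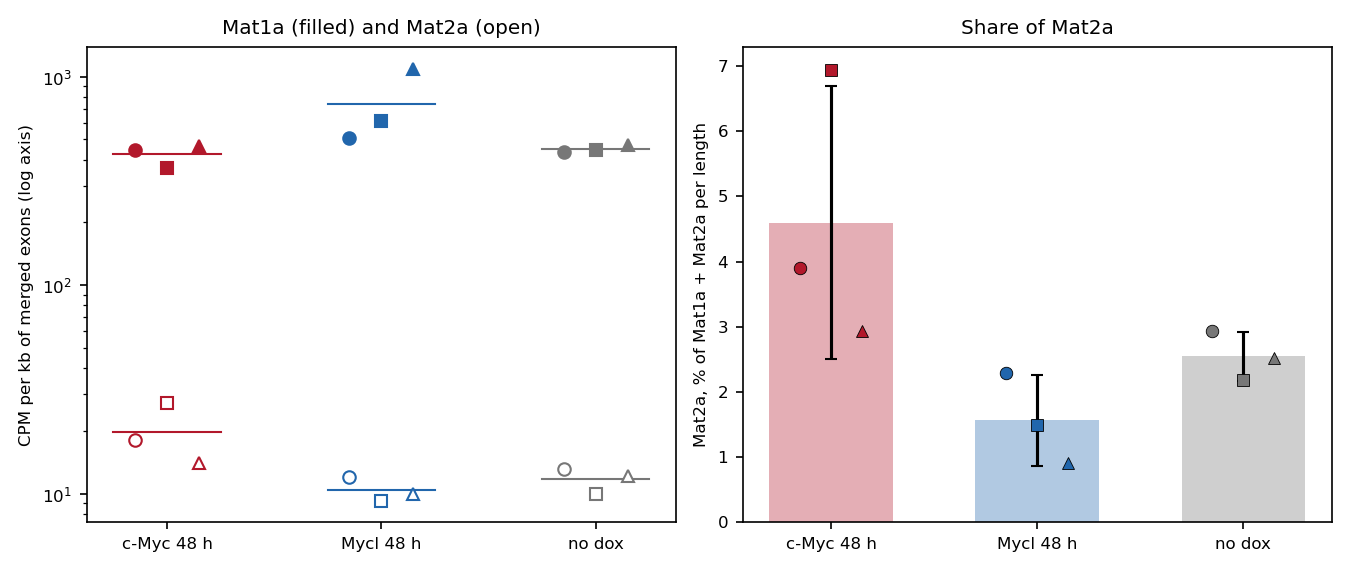
Left, CPM per kb of merged exons on a log axis for Mat1a (filled) and Mat2a (open) in each liver. Right, Mat2a as a percentage of the sum of both genes per length, in the order c-Myc 48 h, Mycl 48 h and no dox; the values lie between 0.906% and 6.95%, the highest in c-Myc replicate 2.

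The share plot places c-Myc replicate 2 apart from the other c-Myc livers, and that liver also had the highest reporter level of the group, 282 CPM. Its Mat2a level was the highest of the 9 livers and its Mat1a level the lowest. In the Mycl group, the liver with the highest reporter level, replicate 3 at 270 CPM, had the highest Mat1a level and the lowest Mat2a share of the 9. Without it, Mat1a in the Mycl livers was 1765 and 2116 CPM, still above the highest no dox liver at 1623 CPM.

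The window around the RefSeq transcription start of Mat2a, 250 bases before to 50 bases after it, is shown because Mat2a was the one gene of the 10 with a higher level in c-Myc livers. It lies at chr6:72439507-72439806 on the minus strand of GRCm38.p6, is written 5′ to 3′ in gene orientation, and has each CG pair in capitals.
Mat2a: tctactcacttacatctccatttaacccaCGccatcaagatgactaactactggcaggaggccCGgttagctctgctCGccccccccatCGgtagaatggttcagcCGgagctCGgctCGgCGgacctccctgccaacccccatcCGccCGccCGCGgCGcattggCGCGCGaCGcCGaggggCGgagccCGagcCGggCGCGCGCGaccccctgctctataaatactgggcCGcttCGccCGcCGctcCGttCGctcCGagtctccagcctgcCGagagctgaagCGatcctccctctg
The window holds 34 CG pairs, against a median of 7 and an upper quartile of 20 over 32851 RefSeq windows of the same length. It holds no CACGTG, the palindromic E-box hexamer that Myc and Max dimers are known to bind, which reads the same on both strands. Of all windows, 7.15% hold that hexamer. Of the 8 genes with a window in the table (all but Mat1a and Cth), Cbs alone had it. Other forms of the E-box and sequence outside the windows were not searched. A link of the hexamer to the levels was not tested.

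The enzymes that consume SAM were lower or overlapping in c-Myc livers and spread widely in Mycl livers. Gnmt (ENSMUSG00000002769, chromosome 17, 46725664 to 46729168, minus strand) encodes glycine N-methyltransferase, which disposes of excess SAM by making sarcosine in hepatocytes. Its level was 656, 518 and 1002 CPM in c-Myc livers, 2261, 959 and 1382 CPM in Mycl livers, and 1329, 1108 and 1148 CPM in no dox livers. All c-Myc livers were below all no dox livers, while the Mycl livers spanned both sides of the no dox range. The log2 fold change was -0.72 (SE 0.33) in c-Myc against no dox livers, 0.36 (SE 0.33) in Mycl against no dox livers and -1.08 (SE 0.34) in c-Myc against Mycl livers. Pemt (ENSMUSG00000000301, chromosome 11, 59970614 to 60046489, minus strand) encodes the enzyme that makes phosphatidylcholine by methylating phosphatidylethanolamine. It stood at 169, 144 and 210 CPM in c-Myc livers, at 318, 203 and 208 CPM in Mycl livers, and at 237, 223 and 208 CPM in no dox livers. Its c-Myc livers overlapped both other groups through replicate 3, and its log2 fold changes were -0.35 (SE 0.21), 0.13 (SE 0.21) and -0.48 (SE 0.21) in the same 3 comparisons.

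Ahcy (ENSMUSG00000027597, chromosome 2, 155059310 to 155074497, minus strand) encodes S-adenosylhomocysteine hydrolase, the enzyme that removes the product which inhibits methyltransferases. Its level was 420, 274 and 368 CPM in c-Myc livers, 542, 431 and 610 CPM in Mycl livers, and 451, 412 and 447 CPM in no dox livers. The c-Myc livers lay below all Mycl livers and overlapped the no dox livers, with log2 fold changes of -0.58 (SE 0.20) and -0.30 (SE 0.20). Mycl against no dox livers gave 0.27 (SE 0.20).

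The Ahcy values carry a limit from a near-identical gene. Gm4737 (ENSMUSG00000048087, chromosome 16, 46152985 to 46155077, minus strand) is annotated as protein coding and matches the Ahcy transcript at 99.664% over 2086 bases. It had 50, 1074 and 1393 reads in c-Myc replicates 1 to 3, 23, 45 and 51 reads in Mycl livers, and 45, 31 and 30 reads in no dox livers. As a share of the reads of both rows, the copy held 0.642, 17.0 and 20.1% in c-Myc livers and no more than 0.563% in any other liver. With both rows summed, the level was 423, 330 and 461 CPM in c-Myc livers, 544, 433 and 613 CPM in Mycl livers, and 454, 414 and 449 CPM in no dox livers. The log2 fold change then moved from -0.30 to -0.12 in c-Myc against no dox livers and from -0.58 to -0.39 in c-Myc against Mycl livers, and c-Myc replicate 3 then overlapped the Mycl livers. Reads of the copy and of Ahcy cannot be assigned with certainty at this identity, and reads that match both may not have been counted at all. What set the c-Myc replicates 2 and 3 apart was not tested.

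**Figure D3:**
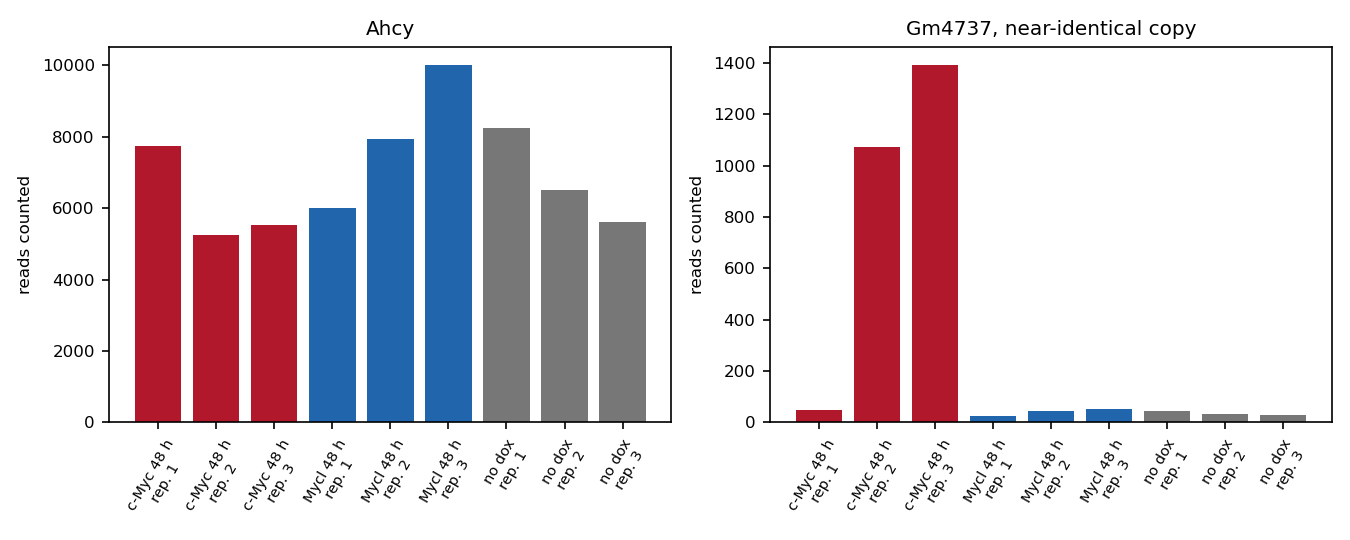
Reads counted for Ahcy (left) and for its near-identical copy Gm4737 (right) in each of the 9 livers, as bars from 0, with separate vertical scales. The copy stands at 1074 and 1393 reads in c-Myc replicates 2 and 3 and at 23 to 51 reads in the other 7 livers.

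The bars for the copy split the c-Myc group itself, since replicate 1, with a reporter level of 221 CPM, had the low count of the other groups.

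The betaine route showed the widest separation of the 10 genes. Bhmt (ENSMUSG00000074768, chromosome 13, 93616675 to 93637961, minus strand) encodes betaine-homocysteine methyltransferase, which remakes methionine with a methyl group from betaine and is abundant in liver. It stood at 135, 94.7 and 257 CPM in c-Myc livers, at 754, 792 and 1177 CPM in Mycl livers, and at 965, 1237 and 1024 CPM in no dox livers. The highest c-Myc liver was thus below the lowest of the other 6, and Mycl and no dox livers overlapped. The log2 fold change was -2.73 (SE 0.36) in c-Myc against no dox livers, a level 0.151 times as high, and -2.48 (SE 0.36) in c-Myc against Mycl livers. In order of log2 fold change, Bhmt was the 43rd lowest of 12651 genes in the first of these and the 50th lowest in the second. Mycl against no dox livers gave -0.25 (SE 0.34).

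Bhmt2 (ENSMUSG00000042118, chromosome 13, 93655720 to 93674302, minus strand) is the neighbouring gene on the same strand and encodes a related enzyme that uses S-methylmethionine as its methyl donor. It stood at 113, 91.5 and 147 CPM in c-Myc livers, at 222, 217 and 215 CPM in Mycl livers, and at 213, 237 and 212 CPM in no dox livers. The c-Myc livers again lay below the other 6, with a log2 fold change of -0.91 (SE 0.18) against no dox livers and -0.89 (SE 0.18) against Mycl livers. Mycl livers differed from no dox livers by -0.02 (SE 0.18), a value whose sign turned with each other scaling tried. Both genes of the pair were thus lower in c-Myc livers in the same order of livers, lowest in replicate 2 and highest in replicate 3, but Bhmt2 stood at 0.531 times and Bhmt at 0.151 times its no dox level.

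Counted reads of copies bear less on this pair. The transcripts of Bhmt and Bhmt2 match at 73.477% over 1116 bases. Gm5096 matches Bhmt at 99.358% over 1869 bases but held only 0.258 to 0.410% of the reads of both rows. Summing its reads left the Bhmt log2 fold change at -2.73 in c-Myc against no dox livers. The processed pseudogene Bhmt-ps1, which has no row in the count table, matches Bhmt at 98.938% over 1224 bases. Reads that match Bhmt and a copy may not have been counted at all, as for Ahcy.

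The start windows of this pair are shown because the 2 neighbours were lower together and their starts differ in composition. They lie at chr13:93637709-93638008 for Bhmt and chr13:93674253-93674552 for Bhmt2, minus strand, GRCm38.p6, with CG pairs in capitals.
Bhmt: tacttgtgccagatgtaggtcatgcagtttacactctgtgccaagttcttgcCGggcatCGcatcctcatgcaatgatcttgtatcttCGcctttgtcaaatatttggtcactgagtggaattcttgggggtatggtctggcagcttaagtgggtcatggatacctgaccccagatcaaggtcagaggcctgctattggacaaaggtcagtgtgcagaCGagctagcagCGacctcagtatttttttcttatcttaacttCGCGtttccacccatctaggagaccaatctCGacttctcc
Bhmt2: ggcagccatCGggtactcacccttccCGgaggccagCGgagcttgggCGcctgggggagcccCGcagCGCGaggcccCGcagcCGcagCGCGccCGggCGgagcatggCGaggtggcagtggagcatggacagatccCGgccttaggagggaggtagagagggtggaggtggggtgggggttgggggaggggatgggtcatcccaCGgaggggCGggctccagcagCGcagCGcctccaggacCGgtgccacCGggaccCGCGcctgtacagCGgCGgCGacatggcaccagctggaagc
The Bhmt window holds 8 CG pairs, close to the median of 7 over all windows, and the Bhmt2 window holds 26. Neither holds CACGTG. Among the other genes with a window, Mat2b had 19 CG pairs, Ahcy 13, Gnmt 11, Cbs 22, and the pair of Pemt windows 3 and 2.

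Transsulfuration genes showed no separation of c-Myc or Mycl livers from no dox livers. Cbs (ENSMUSG00000024039, chromosome 17, 31608894 to 31637238, minus strand) encodes cystathionine beta-synthase, which commits homocysteine to cysteine and is activated by SAM. Its level was 347, 310 and 478 CPM in c-Myc livers, 300, 489 and 621 CPM in Mycl livers, and 466, 666 and 460 CPM in no dox livers, with overlap between all groups. Its log2 fold changes were -0.49 (SE 0.29) in c-Myc against no dox livers, -0.17 (SE 0.28) in Mycl against no dox livers and -0.31 (SE 0.28) in c-Myc against Mycl livers. Cth (ENSMUSG00000028179, chromosome 3, 157894248 to 157925077, minus strand) encodes cystathionine gamma-lyase, which releases cysteine. It stood at 190, 197 and 292 CPM in c-Myc livers, at 382, 271 and 477 CPM in Mycl livers, and at 276, 302 and 293 CPM in no dox livers. The c-Myc livers reached the others only through replicate 3, and the log2 fold changes were -0.36 (SE 0.23), 0.38 (SE 0.23) and -0.73 (SE 0.23) in the same order of comparisons.

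The Cbs start window at chr17:31637156-31637455, minus strand, is shown as the one window of the 8 genes with the E-box hexamer, here in capitals.
Cbs: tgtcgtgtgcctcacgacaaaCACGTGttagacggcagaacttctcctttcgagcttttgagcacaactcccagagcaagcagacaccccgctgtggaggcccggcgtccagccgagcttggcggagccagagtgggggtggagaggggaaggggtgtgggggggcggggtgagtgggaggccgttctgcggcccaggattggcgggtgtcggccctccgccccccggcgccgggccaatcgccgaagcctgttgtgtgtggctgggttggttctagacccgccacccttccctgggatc
The hexamer begins at position -229 from the annotated start. Cbs levels in c-Myc livers overlapped those of no dox livers, as given above. The part of the hexamer in these levels was not tested.

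**Figure D4:**
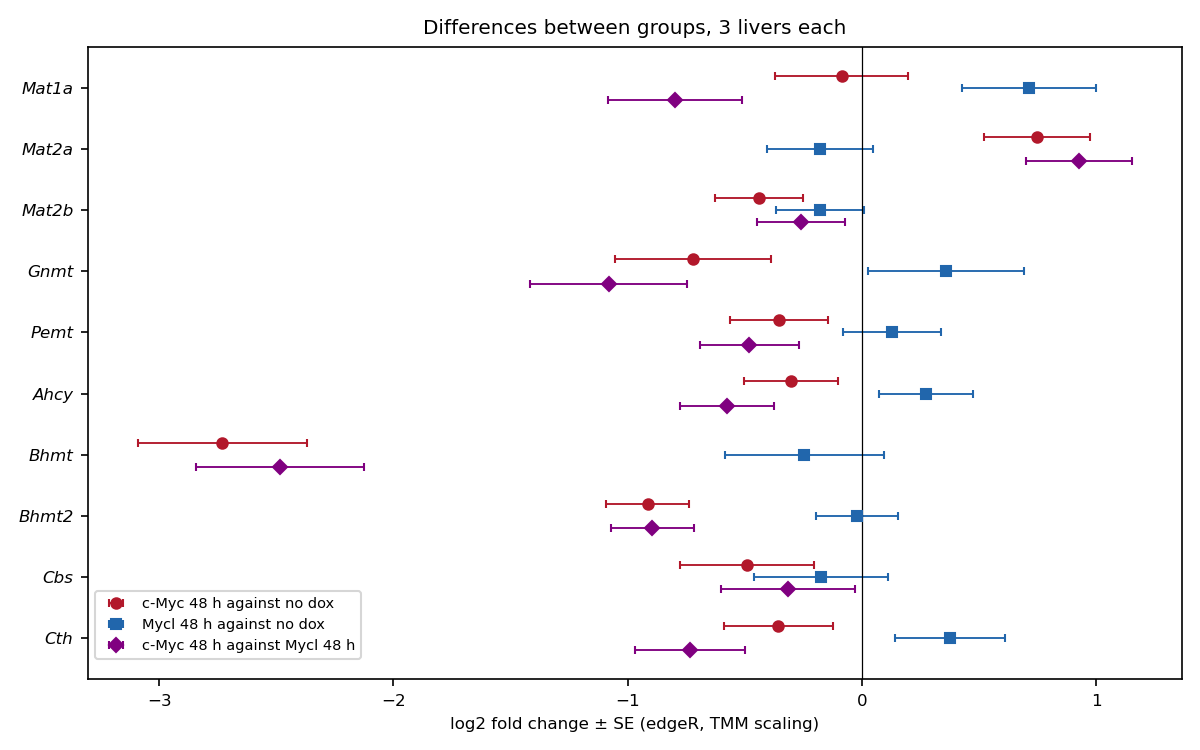
Log2 fold change from the edgeR fit for each of the 10 genes (rows) in 3 comparisons, c-Myc 48 h against no dox, Mycl 48 h against no dox and c-Myc 48 h against Mycl 48 h, with bars of 1 SE. Bhmt lies furthest from 0, at -2.73 and -2.48 in the comparisons with c-Myc on top, and Mat2a is the one gene above 0 in both.

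The plot of fold changes sums up the direction of the set. In c-Myc against no dox livers, 1 of the 10 log2 fold changes was above 0 and 9 were below, with a median of -0.40, against a median of -0.05 and 54.8% below 0 over all 12651 genes. In c-Myc against Mycl livers, 1 was above and 9 below, with a median of -0.65 against -0.03 over all genes. In Mycl against no dox livers, 5 lay on either side, with a median of 0.05 against 0.01. Adjusted over all genes by the Benjamini-Hochberg method, the edgeR quasi-likelihood test called 3 of the 10 in c-Myc against no dox livers (Mat2a higher, Bhmt and Bhmt2 lower), where it called 20.7% of all genes, 11.8% higher and 8.88% lower. The same 3 were called, in the same directions, in c-Myc against Mycl livers, where it called 6.77% of all genes, 4.14% higher and 2.63% lower. In Mycl against no dox livers edgeR, DESeq2 and limma-voom called 0 of the 10, and edgeR called 3.2% of all genes, 2.24% higher and 0.964% lower. Groups did not overlap for 5 of the 10 in c-Myc against no dox livers, where 50.7% of all genes did not (22.6% higher, 28.1% lower), for 5 in c-Myc against Mycl livers, where 25.7% did not (13.7% higher, 12.0% lower), and for 1 in Mycl against no dox livers, where 29.4% did not (13.2% higher, 16.2% lower). These counts describe genes chosen with the same values known.

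Scaling bears on the small differences. With plain library totals in place of TMM, the median log2 fold change of all genes in c-Myc against no dox livers moved from -0.05 to 0.31, and the split of called genes moved from 57.0% to 90.4% higher. Mat1a then stood at 0.27 and Ahcy at 0.04 in that comparison, both above 0 but below that median, while the other 8 genes kept their sign. Without c-Myc replicate 2, Mat1a was also above 0. The Mat2a call in c-Myc against no dox livers was kept in 10 of 17 alternative settings and lost, among others, without any one of the 3 no dox livers and without c-Myc replicate 1 or 2, and its log2 fold change stayed between 0.49 and 1.14. Bhmt kept its call in 17 of 17, between -3.23 and -2.40, and Bhmt2 in 17 of 17, between -1.11 and -0.57. These genes were chosen with the same values known, so a kept call describes the fit and lends no support. In c-Myc against Mycl livers the calls were kept in 7 of 17 settings for Mat2a, 16 for Bhmt and 13 for Bhmt2. Without c-Myc replicate 1, edgeR called no gene of the 10 there. Without replicate 2 it called 1, and without replicate 3 it called 5. Over all genes it then called 40 higher and 27 lower of 12784, 47 and 32 of 12756, and 979 and 572 of 12803. In Mycl against no dox livers, where no gene of the 10 was called, several small log2 fold changes turned sign or came near 0 when 1 liver was left out. Cbs was 0.08 without no dox replicate 2 and 0.12 without Mycl replicate 1. Mat2b was 0.02 without Mycl replicate 2, and without Mycl replicate 1 Pemt was -0.06 and Gnmt 0.03.

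Per length, the order of the 10 genes differed between groups mainly by the place of Bhmt. In c-Myc livers the mean CPM per kb was 601 for Gnmt, 424 for Mat1a, 126 for Ahcy, 82.8 for Pemt, 81.2 for Cth, 50.5 for Cbs, 47.5 for Bhmt2, 28.2 for Bhmt, 19.7 for Mat2a and 6.46 for Mat2b. Neighbours from Cbs to Mat2a overlapped in that order, as did Gnmt with Mat1a and the run from Ahcy to Cth. In Mycl livers the order was Gnmt at 1272, Mat1a at 737, Ahcy at 188, Bhmt at 158, Cth at 135, Pemt at 116, Bhmt2 at 88.2, Cbs at 62.8, Mat2a at 10.4 and Mat2b at 7.75 CPM per kb. There Gnmt overlapped Mat1a, neighbours from Ahcy to Pemt overlapped, and Mat2a overlapped Mat2b. In no dox livers it was Gnmt at 991, Mat1a at 449.9, Bhmt at 187, Ahcy at 156, Pemt at 106, Cth at 104, Bhmt2 at 89.4, Cbs at 70.9, Mat2a at 11.8 and Mat2b at 8.75 CPM per kb, and the neighbours that overlapped were Pemt with Cth and Bhmt2 with Cbs. By merged exon length, Bhmt was thus 8th in c-Myc livers, 4th in Mycl livers and 3rd in no dox livers. Gnmt was first and Mat2b last in all 3 groups by that length. Merged exons of Bhmt and Mat2b span 5758 and 5001 bases, against 2490 and 2053 bases in their longest coding transcripts. The places of genes within a group, that of Mat2b below Mat2a among them, therefore depend on the length used.

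The spread within groups differed by gene. The coefficient of variation over 3 livers was 1.65% (Mat2b) to 52.2% (Bhmt) in c-Myc livers, 1.70% (Bhmt2) to 43.3% (Gnmt) in Mycl livers, and 3.75% (Mat1a) to 22.0% (Cbs) in no dox livers. Within the c-Myc group, replicate 2, the liver with the highest reporter, was lowest for 8 of the 10 genes and highest for Mat2a. Replicate 3, with the lowest reporter at 76.4 CPM, was highest for 8 of the 10 and lowest for Mat2a. Within the Mycl group, replicate 1 was highest for 5 genes and replicate 3 for the other 5. The part of induction level in this spread was not tested.

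Over the 9 livers, log2 CPM of Bhmt and Bhmt2 had a Pearson r of 0.982, and Gnmt and Pemt one of 0.965. Mat2a ran opposite to Bhmt2 at -0.932 and to Bhmt at -0.899, and Mat1a and Mat2a had an r of -0.609. Cbs and Pemt, at 0.104, and Mat2b and Cbs, at -0.00178, had almost none. These values describe 9 points that share 3 groups and carry no test. Of 6315 other genes above the median level, those most like Mat2a were Ptges3, a co-chaperone of Hsp90, at 0.993, Gtf2h1, a subunit of transcription factor TFIIH, at 0.976, Hira, a histone chaperone, at 0.968, Kpna3, a nuclear import receptor, at 0.961, and Naa50, an N-terminal acetyltransferase, at 0.955. Those most like Mat1a were Cd36, a fatty acid transporter, at 0.963, Dbt, a subunit of the branched-chain keto acid dehydrogenase, at 0.961, Il6ra, the interleukin-6 receptor, at 0.950, Tmem176a at 0.935, and Sorbs3 at 0.935.

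Other genes of methyl group and sulfur metabolism were taken from 9 lists with 83 measured genes, listed by function and drawn up with earlier results of these data known. In c-Myc against no dox livers 21 of the 83 rose, 8 fell and 54 did not pass the edgeR test at an adjusted p of 0.05, and with plain library totals 33 rose and 2 fell. Their median log2 fold change was 0.05, against -0.05 over all genes. That is 25.3% risen and 9.64% fallen, beside 11.8% called higher and 8.88% called lower over all genes, so the share that fell is close to that of all genes. Of the 21 that rose, 12 were methyltransferases of RNA, protein and DNA and 4 lay in polyamine entry and methionine salvage, 2 in remethylation, 2 in SAM handling and 1 in the choline route. Of the 8 that fell, 3 lay in cysteine breakdown, 2 in betaine oxidation, 2 in small molecule methylation and 1 in the glutathione list. These 29 calls numbered 14 to 43 when 1 liver was left out. They were 17, 14 and 18 without no dox replicates 1, 2 and 3, and 15 and 14 without c-Myc replicates 1 and 2. Calls over all genes numbered 1197 to 4246 when 1 liver was left out.

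Folate-dependent remethylation, the route beside betaine, had 2 of 5 genes that rose, the other 3 not passing, in c-Myc against no dox livers. Mtrr, the reductase that keeps methionine synthase active, stood at 17.2, 22.0 and 8.18 CPM in c-Myc livers and at 5.64, 5.44 and 5.17 CPM in no dox livers, and rose by 1.54 on the log2 scale (SE 0.30, edgeR adjusted p = 0.00657). Mmachc, which processes cobalamin, averaged 23.7 ± 4.01 CPM in c-Myc livers and 16.0 ± 1.35 CPM in no dox livers, a rise of 0.57 (SE 0.17, edgeR adjusted p = 0.0409). Methionine synthase itself, Mtr, had a log2 fold change of 0.25, which did not pass the test. In betaine and sarcosine oxidation 2 of 5 genes fell, Dmgdh, which oxidises the dimethylglycine that Bhmt makes, by 0.66 (SE 0.20, edgeR adjusted p = 0.0397) and Aldh7a1, which can oxidise betaine aldehyde, by 0.64 (SE 0.19, edgeR adjusted p = 0.0421). Each kept its call in 5 of 17 alternative settings, whereas Mtrr kept it in 17 and Mmachc in 11. Chdh, which makes betaine aldehyde from choline, did not pass, at a log2 fold change of -0.50.

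Of 5 genes that handle SAM and its product, 2 rose in c-Myc against no dox livers. Mettl16, the methyltransferase known to control Mat2a splicing and stability in human cells, stood at 24.8, 29.0 and 18.2 CPM in c-Myc livers, at 13.5, 15.6 and 13.3 CPM in Mycl livers, and at 14.6, 11.9 and 16.4 CPM in no dox livers. Its c-Myc livers lay above all of the others. The log2 fold change was 0.75 against no dox livers (SE 0.19, edgeR adjusted p = 0.0223) and 0.77 against Mycl livers (SE 0.19, edgeR adjusted p = 0.0439). The first call was kept in 13 of 17 alternative settings and the second in 6. Over all genes, 22.6% were higher without overlap against no dox livers and 13.7% against Mycl livers. The part of Mettl16 in the Mat2a level was not tested. Slc25a26, the mitochondrial SAM carrier, averaged 8.19 ± 1.04 CPM in c-Myc livers and 5.51 ± 0.394 CPM in no dox livers, and rose by 0.57 (SE 0.17, edgeR adjusted p = 0.0352).

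Other users of SAM moved in both directions in c-Myc against no dox livers. Of 9 small molecule methyltransferases 2 fell and 7 did not pass. Tpmt, which methylates thiopurines, averaged 47.5 ± 6.61 CPM in c-Myc livers and 80.8 ± 15.9 CPM in no dox livers, and fell by 0.77 (SE 0.19, edgeR adjusted p = 0.0207). Of 25 methyltransferases of RNA, protein and DNA, 12 rose and 13 did not pass, with a list median of 0.68. Ezh2, which methylates histone H3, averaged 18.7 ± 4.72 CPM in c-Myc livers and 6.93 ± 0.688 CPM in no dox livers, a rise of 1.43 (SE 0.20, edgeR adjusted p = 0.00138). Prmt3, an arginine methyltransferase of ribosomal protein, rose by 1.85 (SE 0.27, edgeR adjusted p = 0.00169) and Fbl, the ribosomal RNA methyltransferase fibrillarin, by 1.39 (SE 0.20, edgeR adjusted p = 0.00172), and all 3 kept their calls in 17 of 17 alternative settings. The other 9 that rose were Prmt1, Prmt5, Prmt7, Carm1, Dnmt1, Mettl1, Nop2, Nsun2 and Trmt61a.

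**Figure D5:**
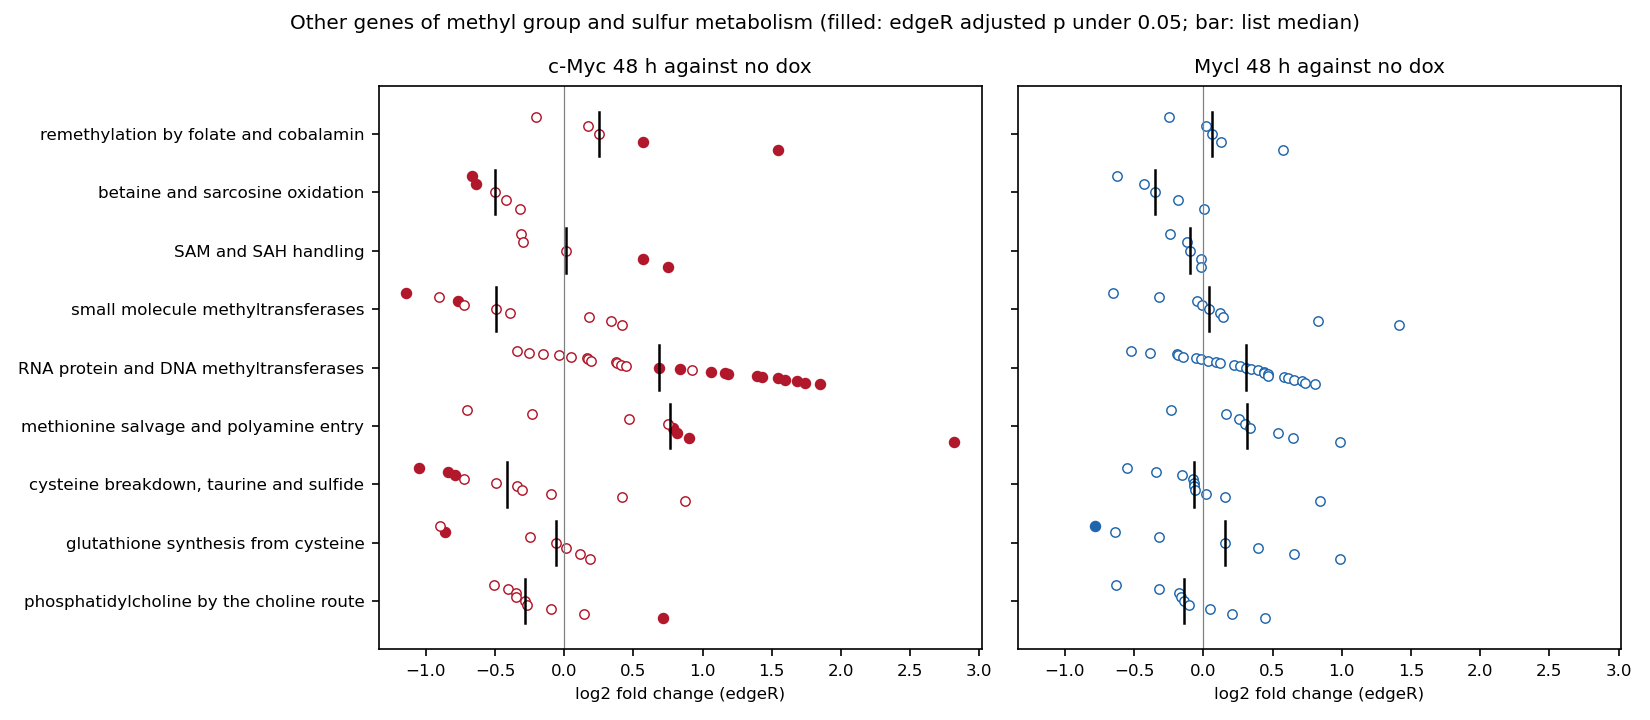
Log2 fold change from the edgeR fit of each of 83 other genes of methyl group and sulfur metabolism, in rows by list, with 1 panel per comparison. Filled points had an edgeR adjusted p under 0.05 and the bar marks the list median; of the RNA, protein and DNA methyltransferases 21 of 25 lie to the right of 0 in c-Myc against no dox livers, 12 of them filled, and the Mycl against no dox panel has 1 filled point, Gclc.

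The plot by list also shows the polyamine and cysteine branches. Of 8 genes of polyamine entry and methionine salvage, 4 rose in c-Myc against no dox livers. Srm, spermidine synthase, stood at 83.5, 115 and 44.3 CPM in c-Myc livers, at 19.3, 23.3 and 25.5 CPM in Mycl livers, and at 13.0, 12.3 and 9.15 CPM in no dox livers. It rose by 2.82 in c-Myc against no dox livers (SE 0.31, edgeR adjusted p = 0.000575) and by 1.83 in c-Myc against Mycl livers (SE 0.30, edgeR adjusted p = 0.0153). Amd1, which decarboxylates SAM for polyamine synthesis, rose by 0.78 (SE 0.20, edgeR adjusted p = 0.0196) and Mtap, which starts the salvage of methylthioadenosine, by 0.81 (SE 0.23, edgeR adjusted p = 0.0306) against no dox livers; the fourth was Enoph1 of the same salvage route.

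Downstream of Cth, 3 of 10 genes of cysteine breakdown fell in c-Myc against no dox livers. Suox, sulfite oxidase, stood at 72.8, 59.5 and 108 CPM in c-Myc livers and at 158, 179 and 161 CPM in no dox livers, and fell by 1.05 (SE 0.24, edgeR adjusted p = 0.0126). Mpst, which transfers sulfur from mercaptopyruvate, fell by 0.79 (SE 0.18, edgeR adjusted p = 0.0127) and Ethe1, the persulfide dioxygenase, by 0.84 (SE 0.23, edgeR adjusted p = 0.0272). Cdo1, which opens cysteine oxidation, did not pass, at -0.73. Of 7 glutathione genes 1 fell, Oplah, the oxoprolinase of the glutathione cycle, which averaged 104 ± 13.9 CPM in c-Myc livers and 189 ± 8.60 CPM in no dox livers and fell by 0.86 (SE 0.16, edgeR adjusted p = 0.00548). Of 9 genes of the choline route to phosphatidylcholine, which runs beside Pemt, 1 rose, Chka, choline kinase, by 0.72 (SE 0.17, edgeR adjusted p = 0.017). Of the 19 list genes that the naming rule took for c-Myc against no dox livers, Mtrr, Ezh2, Prmt3, Fbl, Srm and Oplah kept their calls in all 17 alternative settings. Of the other calls, 13 were lost without c-Myc replicate 2, 13 without no dox replicate 2, 12 without c-Myc replicate 1, 10 without no dox replicate 1, 9 without no dox replicate 3 and 6 with library totals.

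Mycl against no dox livers gave 1 call among the 83, or 1.2%, where 3.2% of all genes were called. Gclc, the catalytic subunit of the first enzyme of glutathione synthesis, stood at 356, 393 and 309.7 CPM in Mycl livers and at 668, 581 and 571 CPM in no dox livers, and fell by 0.78 (SE 0.16, edgeR adjusted p = 0.0346). That call was kept in 9 of 17 alternative settings, and it was lost without any one of the no dox livers. At an unadjusted edgeR p under 0.05, 11 of the 83 were higher and 8 lower, a threshold at which all genes were not counted here. DESeq2 called 5 higher and 4 lower, beside 744 higher and 342 lower over all genes. Nnmt, which spends SAM on nicotinamide, averaged 131 ± 61.2 CPM in Mycl livers and 49.1 ± 6.71 CPM in no dox livers, at a log2 fold change of 1.41 that did not pass.

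Set directly against Mycl livers, c-Myc livers had 10 of the 83 genes that rose and 1 that fell. These are 12.0% and 1.2% of the list genes, beside 4.14% called higher and 2.63% called lower over all genes. The 10 were 7 methyltransferases of RNA, protein and DNA, among them Fbl by 1.0 (SE 0.20, edgeR adjusted p = 0.0262), Prmt5 by 0.94 (SE 0.20, edgeR adjusted p = 0.0303) and Dnmt1 by 1.3 (SE 0.28, edgeR adjusted p = 0.0309), with Mettl16, Srm and Gclc. The gene that fell was Got1, the cytosolic aspartate aminotransferase, at 110, 89.7 and 169 CPM in c-Myc livers against 230, 276 and 313 CPM in Mycl livers, by 1.15 (SE 0.24, edgeR adjusted p = 0.0285). In no dox livers Got1 stood at 126, 164 and 166 CPM, overlapping the c-Myc livers. Gclc stood at 573, 590 and 580 CPM in c-Myc livers, within the no dox range of 571 to 668 CPM. For both genes the Mycl livers were the group apart from no dox livers. By edgeR, 0 of the 83 genes were called without c-Myc replicate 1, without c-Myc replicate 2 or with the 6 compared livers fitted alone. In those fits, in that order, edgeR called 40, 47 and 35 of all genes higher and 27, 32 and 39 lower. Without c-Myc replicate 3 it called 31 of the 83, beside 979 higher and 572 lower over all genes. DESeq2 called 25 of the 83 over all livers, beside 998 higher and 745 lower over all genes. At an unadjusted edgeR p under 0.05, where all genes were not counted here, 23 of the 83 were higher and 13 lower.

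Summed markers of other liver cells are given by group, with no test of the sums. Stellate cell markers summed to 930.2 to 1833 CPM in c-Myc livers, 626 to 1174 CPM in Mycl livers and 629.9 to 762 CPM in no dox livers, with the highest value in c-Myc replicate 2, the liver with the highest Mat2a. Markers of sinusoidal endothelium summed to 269.8 to 374 CPM in c-Myc livers, 275 to 446 CPM in Mycl livers and 429.8 to 541 CPM in no dox livers. Kupffer cell markers summed to 213 to 309.5 CPM in c-Myc livers, 401 to 489 CPM in Mycl livers and 348 to 395 CPM in no dox livers. Neutrophil and monocyte markers were low, at 17.8 to 30.6 CPM in c-Myc livers, 23.9 to 31.4 CPM in Mycl livers and 7.97 to 10.3 CPM in no dox livers, with Ly6g under 1 CPM in all 9. Lymphocyte markers summed to 2.14 to 4.39 CPM in c-Myc livers, 4.55 to 6.58 CPM in Mycl livers and 4.60 to 7.84 CPM in no dox livers. Cholangiocyte markers summed to 37.0 to 64.2 CPM in c-Myc livers, 43.3 to 80.7 CPM in Mycl livers and 47.2 to 51.0 CPM in no dox livers, and 7 erythroid genes to 98.4 to 116, 158 to 443 and 202 to 261 CPM in the same order of groups. No marker gene of these lists was at 0 in all livers. The part of these cells in the Mat2a level was not tested.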

How the data were processed

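RNA was sequenced from 9 livers. Per the labels' protocols, libraries were made with a directional kit. The deposited table holds whole-number read counts per gene, made by the authors; the submitters' processing notes name cutadapt 3.0, STAR 2.7.8a, HTSeq 0.11.2, DESeq2 1.30.0 and mm10. The strand setting of the counting is not given in the sources used here, so reads of Mat2a, Ahcy, Bhmt and Gnmt may include those of annotated genes on the opposite strand. Replicates are separate livers per the labels.

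The counts were fitted in R 4.3.3 with edgeR 4.0.16 over all 9 livers: filterByExpr by group with a minimum count of 10 (12651 genes), TMM scaling, a quasi-likelihood fit by group with 6 residual degrees of freedom, and Benjamini-Hochberg adjustment over all genes, called at 0.05. SEs are |log2 fold change| over the root of the F statistic. The fit was tested on simulated data. Log2 CPM used a prior count of 2. Positions and merged exon lengths came from GENCODE M21, start windows from RefSeq on GRCm38.p6, and copies were searched with blastn 2.17.0. Total counts ran from 11013412 to 20079232 and set the precision of low values.

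The 10 genes and all lists were chosen with earlier results of these data known. Genes named from the lists are the up to 3 of each list and comparison with the smallest adjusted p among those called; further list genes were named after their values were seen, and some results are not reported here. Alternatives were library totals, upper quartile scaling, DESeq2 size factors in edgeR, no filter and a replicate block. Further alternatives were the 6 compared livers alone, DESeq2 1.42.0, limma 3.58.1 voom and leaving out each liver. Adding copy reads was chosen after seeing the data.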

Additional observations from a re-analysis of the deposited data

How the results depend on the processing

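Over the 10 genes and 3 comparisons, 498 of 510 alternative log2 fold changes moved by less than their spread, 12 moved by more, and none of those called changed sign. The differences in the log2 ratio of Mat2a to Mat1a kept their sign throughout, at 0.43 to 1.08 (c-Myc against no dox), -1.14 to -0.46 (Mycl against no dox) and 1.24 to 1.94 (c-Myc against Mycl) when 1 liver was left out. Calls among the 10 genes in c-Myc against Mycl livers, 3 by edgeR, were 7 with DESeq2, 2 with limma-voom and 0 to 5 without 1 liver. Counts of called genes moved by more. All genes called in Mycl against no dox livers were 405, but 1086 with DESeq2, 200 with limma-voom and 26 to 717 without 1 liver. In c-Myc against no dox livers they were 2614, but 4109 with only the 6 livers compared and 1197 to 4246 without 1 liver. In c-Myc against Mycl livers they were 857, but 1679 with library totals, 74 with the 6 livers, 1743 with DESeq2 and 67 to 1551 without 1 liver. Of the 83 pathway genes, the 1 call of Mycl against no dox livers became 2 with library totals, 2 with no filter, 0 with the replicate block, 9 with DESeq2 and 0 to 4 without 1 liver. The 29 of c-Myc against no dox livers became 14 to 43 without 1 liver. The 11 of c-Myc against Mycl livers became 23 with library totals, 6 with the replicate block, 0 with the 6 livers, 25 with DESeq2 and 0 to 31 without 1 liver. The cause of these shifts was not tested. Library totals moved the share of called genes that were higher from 69.9 to 83.2% in Mycl against no dox livers, where upper quartile scaling gave 82.7%, and from 61.1 to 86.7% in c-Myc against Mycl livers. Deviations of same-numbered livers from their group means correlated at -0.19 to 0.31, and those of livers with different numbers at -0.27 to 0.19. With 3 livers a group, these values cannot show whether the numbers pair the livers. With the replicate block, all genes called were 297 in Mycl against no dox, 2361 in c-Myc against no dox and 689 in c-Myc against Mycl livers. All 10 genes passed the filter on low counts, and 3 livers a group limit the precision.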
